A study of Arabidopsis with 12 samples.

Results

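The small heat shock proteins and HSP101 are chaperones that cells accumulate in heat. The 10 *Arabidopsis thaliana* genes described here were chosen by name and gene identifier, with earlier results of these data known. All 10 were among the 33559 genes of the deposited expression table. The study asked how the *aph-1* mutation alters the response of seedlings to abscisic acid (ABA), a hormone of drought and of seed maturation. *APH* (AT3G44620) encodes a low molecular weight protein tyrosine phosphatase. The wild type was the accession Col-0, and *aph-1* was a single T-DNA insertion line, Salk_120974, with the insertion in the *APH* promoter and a transcript that fuses T-DNA with *APH* exons. Whole seedlings, 14 days old, were sequenced in 4 groups of 3 libraries, namely the untreated wild type, untreated *aph-1*, the wild type with ABA and *aph-1* with ABA. The labels give the ABA treatment as 50 micromole for 6 h.

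Small heat shock proteins bind other proteins that begin to unfold and keep them from clumping, without using ATP. They form large oligomers and are sorted into classes by sequence and by cell compartment. HSP101 is a ring-shaped ATPase of the HSP100/Clp family that pulls aggregated proteins apart together with HSP70, and plants that lack it do not survive a heat treatment that acclimated wild-type plants survive. Genes of both families are under the control of heat shock factors, and several small heat shock proteins also accumulate in maturing seeds.

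The table holds 1 value per gene and group, in FPKM, an abundance scaled to gene length and to the number of reads. Each group value stands for 3 libraries, no value per library was given, and the read depth is unknown. There is therefore no spread between libraries and no test for any value given here. A gene was counted as higher or lower where its FPKM differed at least 2-fold and at least 1 of the compared groups had 1 FPKM or more. Genes that met this minimum are called compared genes. In whole seedlings, fewer cells that express a gene and less RNA per cell cannot be told apart.

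The level of *APH* was 95.9 FPKM in Col-0 against 83.6 FPKM in *aph-1* when untreated, and 99.0 against 86.9 FPKM with ABA. A value over the whole gene does not separate the fused transcript from the normal transcript, so it does not check the genotype. Leaf and root markers were present, with *RBCS1A*, a subunit of the carbon-fixing enzyme Rubisco, between 3952 and 12404 FPKM and *CASP1*, a gene of the root endodermis, between 20.0 and 29.5 FPKM. Some of them moved along the same ABA contrast. Of 3 leaf markers, *RBCS1A* and *RCA* were at least 2-fold lower with ABA in both genotypes, *RCA* from 1338 to 291 FPKM in Col-0 and from 1752 to 353 FPKM in *aph-1*. Of 4 root markers, *IRT1*, an iron transporter gene, was lower, from 10.5 to 0.109 FPKM in Col-0 and from 7.38 to 0.113 FPKM in *aph-1*, and the other 3 passed 2-fold in neither genotype. Of 4 dry seed markers, *CRA1*, *CRU3* and *OLEO1* stayed below 0.4 FPKM in every group. *OLEO2*, an oil body protein, was at 0.0182 and 0.0196 FPKM without ABA and with ABA at 3.61 FPKM in Col-0 and 2.06 FPKM in *aph-1*. The part of these markers in the results was not tested.

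All 10 genes were at least 2-fold higher with ABA in both genotypes. Of 20094 genes compared in the wild type, 11.9% were higher and 13.4% lower with ABA, and of 20054 genes compared in *aph-1*, 12.2% were higher and 11.1% lower. *HSP21* and *HSP23.6* reached 1 FPKM only with ABA in both genotypes. In *aph-1* this also held for *HSP22.0*, *HSP17.6A*, *HSP17.6C* and *HSP17.6II*. By the rule for comparing, such genes could only come out higher with ABA. The median log2 ratio of the 10 genes was 3.83 in the wild type and 5.67 in the mutant, against −0.0041 and −0.020 over all genes compared. The genes differed widely among themselves. In the wild type the rise ran from 3.47-fold for *HSP15.7* to 88.2-fold for *HSP22.0*, and in *aph-1* from 3.33-fold for *HSP101* to 1623-fold for *HSP22.0*.

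**Figure D1:**
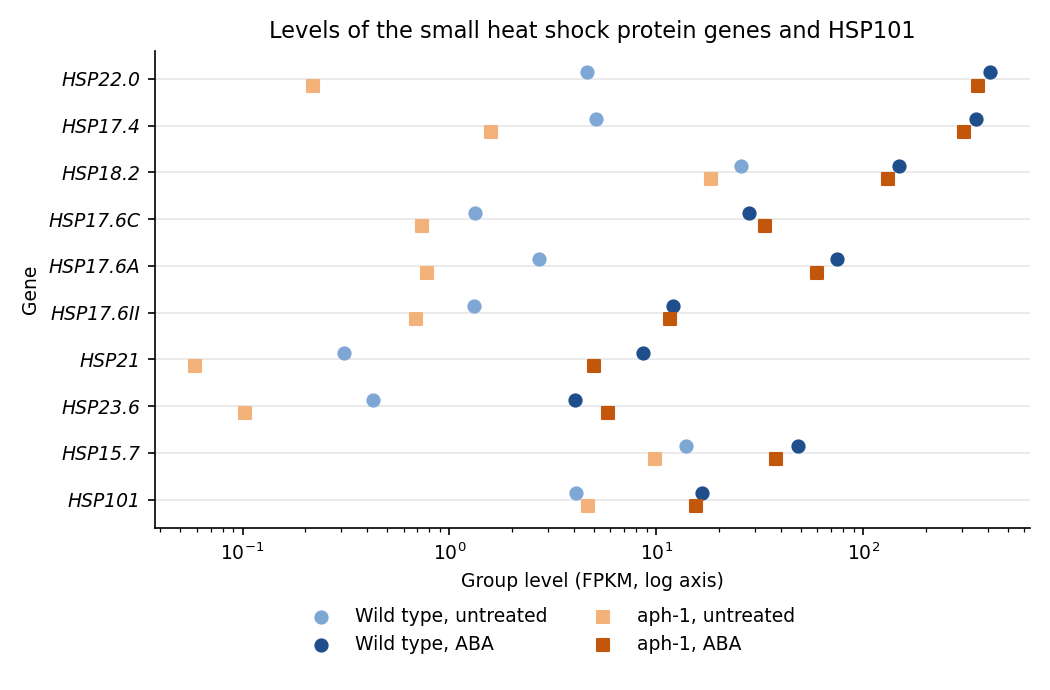
Group levels of the 10 genes in FPKM on a log axis, with circles for the wild type, squares for *aph-1*, pale symbols without ABA and dark symbols with ABA. Each symbol is the authors' value for 3 libraries and has no error. In every row the dark symbols lie to the right of the pale ones, and the widest gap is that of *HSP22.0* in *aph-1*, from 0.220 to 357 FPKM.

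*HSP22.0* (AT4G10250, chromosome 4) encodes the small heat shock protein of the endoplasmic reticulum. It stood at 4.65 FPKM in the untreated wild type, 0.220 FPKM in untreated *aph-1*, 410 FPKM in the wild type with ABA and 357 FPKM in *aph-1* with ABA. Both ABA groups were far above both untreated groups, and untreated *aph-1* was lower than every other group. The level with ABA was above that of 98.4% of the genes above 0 in the wild type and of 97.9% of those above 0 in *aph-1*. Without ABA these shares were 36.8% and 13.1%. The fold in *aph-1* rests on the level of 0.220 FPKM, whose error is unknown. By the size of its rise with ABA *HSP22.0* was 75th of the genes compared in the wild type and 62nd in *aph-1*. The flanking genes in the annotation order, *bbx23* and AT4G10260, were at 0.135 FPKM or less in all 4 groups.

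Class I small heat shock proteins work in the cytosol, and 3 of their genes were among the 10. *HSP17.4* (AT3G46230, chromosome 3) stood at 5.13 FPKM in the untreated wild type, 1.59 FPKM in untreated *aph-1*, 350 FPKM in the wild type with ABA and 308 FPKM in *aph-1* with ABA. Its ABA response was 68.3-fold in the wild type and 194-fold in *aph-1*, and both untreated levels were low beside both treated levels. *HSP17.4* overlaps AT3G46220 in the annotation, which was at 12.6, 11.9, 16.7 and 15.6 FPKM in the same order of groups, and AT3G07365, which was not analysed here. The library kit keeps the strand of the RNA, but the strand setting of the count is not stated, so reads of the overlap are uncertain.

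*HSP18.2* (AT5G59720, chromosome 5) was the most abundant of the 10 genes without ABA in both genotypes. It stood at 25.7 FPKM in the untreated wild type, 18.3 FPKM in untreated *aph-1*, 148 FPKM in the wild type with ABA and 132 FPKM in *aph-1* with ABA. From this higher start the ABA response was 5.77-fold in the wild type and 7.19-fold in *aph-1*. *HSP17.6C* (AT1G53540, chromosome 1) stood at 1.33 FPKM in the untreated wild type, 0.734 FPKM in untreated *aph-1*, 28.0 FPKM in the wild type with ABA and 33.7 FPKM in *aph-1* with ABA. It responded 21.1-fold in the wild type and 45.9-fold in *aph-1*, and with ABA it was slightly higher in *aph-1*. The class I genes are similar to each other in sequence, so reads may have been shared among them in counting.

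Class II small heat shock proteins also work in the cytosol, and the genes *HSP17.6A* (AT5G12030) and *HSP17.6II* (AT5G12020) lie next to each other on chromosome 5. *HSP17.6A* stood at 2.71 FPKM in the untreated wild type, 0.780 FPKM in untreated *aph-1*, 74.6 FPKM in the wild type with ABA and 59.6 FPKM in *aph-1* with ABA. *HSP17.6II* stood at 1.32 FPKM in the untreated wild type, 0.691 FPKM in untreated *aph-1*, 12.004 FPKM in the wild type with ABA and 11.6 FPKM in ABA-treated *aph-1*. The neighbours were close in level without ABA in *aph-1* and far apart with ABA, where *HSP17.6A* was the more abundant of the pair per length in both genotypes. The ABA response of *HSP17.6A* was 27.5-fold in the wild type and 76.3-fold in *aph-1*. That of *HSP17.6II* was 9.12-fold in the wild type and 16.8-fold in *aph-1*.

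The small heat shock proteins of the plastid, the mitochondrion and the peroxisome are each imported into their organelle. *HSP21* (AT4G27670, chromosome 4), the plastid protein, stood at 0.309 FPKM in the untreated wild type, 0.0587 FPKM in untreated *aph-1*, 8.61 FPKM in the wild type with ABA and 5.02 FPKM in *aph-1* with ABA. *HSP23.6* (AT4G25200, chromosome 4), the mitochondrial protein, stood at 0.425 FPKM in the untreated wild type, 0.102 FPKM in untreated *aph-1*, 4.05 FPKM in the wild type with ABA and 5.81 FPKM in *aph-1* with ABA. Both were the least abundant of the 10 genes in every group, and without ABA both were below 1 FPKM in both genotypes. *HSP21* responded 27.8-fold in the wild type and 85.6-fold in *aph-1*, and *HSP23.6* responded 9.54-fold and 56.8-fold.

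*HSP15.7* (AT5G37670, chromosome 5), the peroxisomal protein, had a higher untreated level and a smaller ABA response than *HSP21* and *HSP23.6*. It stood at 13.9 FPKM in the untreated wild type, 9.85 FPKM in untreated *aph-1*, 48.3 FPKM in the wild type with ABA and 37.8 FPKM in *aph-1* with ABA. This was the second highest untreated level and, in the wild type, the smallest ABA response of the 10 genes, at 3.47-fold in the wild type and 3.83-fold in *aph-1*.

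*HSP101* (AT1G74310, chromosome 1), the disaggregating ATPase, stood at 4.07 FPKM in the untreated wild type, 4.66 FPKM in untreated *aph-1*, 16.6 FPKM in the wild type with ABA and 15.5 FPKM in *aph-1* with ABA. Of the 10 genes it alone had the higher untreated level in *aph-1*, and it alone had a smaller ABA response in *aph-1*, 3.33-fold against 4.09-fold. *HSP101* overlaps AT1G74300 in the annotation, a gene between 5.13 and 6.20 FPKM in the 4 groups.

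**Figure D2:**
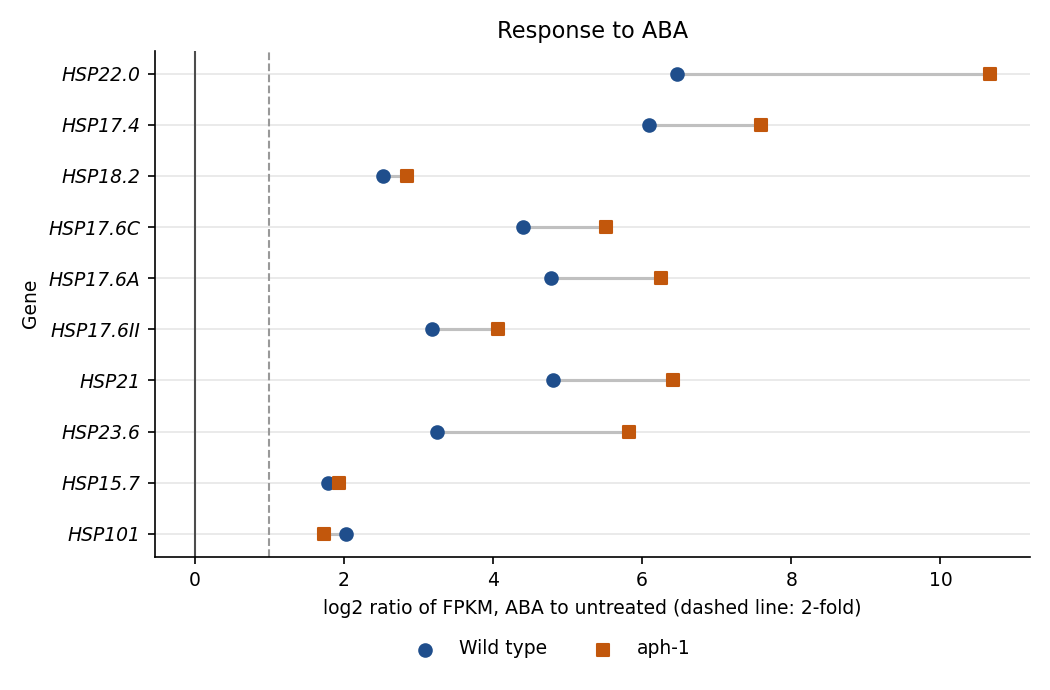
log2 ratio of FPKM with ABA to FPKM without ABA for each of the 10 genes, with circles for the wild type and squares for *aph-1*, and a dashed line at 2-fold. All points lie right of the dashed line, and the distance between circle and square runs from 4.20 for *HSP22.0* to −0.29 for *HSP101* as *aph-1* minus wild type.

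The order of the levels changed with ABA. In the untreated wild type it ran *HSP18.2*, *HSP15.7*, *HSP17.4*, *HSP22.0*, *HSP101*, *HSP17.6A*, *HSP17.6C*, *HSP17.6II*, *HSP23.6* and *HSP21* from the highest per length to the lowest. With ABA *HSP22.0* and *HSP17.4* led in both genotypes, followed by *HSP18.2*, *HSP17.6A*, *HSP15.7*, *HSP17.6C*, *HSP101* and *HSP17.6II*. In untreated *aph-1* *HSP22.0* was 8th of the 10 genes, against 4th in the untreated wild type. With no spread between libraries, it cannot be said which neighbours in these orders differ.

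The sum over the 10 genes was 59.6 FPKM in the untreated wild type, 37.0 FPKM in untreated *aph-1*, 1100 FPKM in the wild type with ABA and 966 FPKM in *aph-1* with ABA. *HSP18.2* and *HSP15.7* together made up 66.5% of the untreated sum in the wild type and 76.1% in the mutant. With ABA their share was 17.9% in the wild type and 17.5% in the mutant. *HSP22.0* and *HSP17.4* together went from 16.4% to 69.1% of the sum in the wild type and from 4.90% to 68.9% in *aph-1*. The make-up of the sum with ABA was nearly the same in both genotypes. The sum rose 18.5-fold with ABA in the wild type and 26.1-fold in *aph-1*, and without *HSP22.0* and *HSP17.4* it rose 6.84-fold and 8.55-fold.

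Without ABA, 3 of the 8 compared genes were at least 2-fold below their wild-type level in *aph-1*, and 0 were above it. Of 19788 genes compared, 0.945% were lower and 0.238% higher. *HSP22.0*, *HSP17.6A*, *HSP17.6C* and *HSP17.6II* reached 1 FPKM in the wild type only. By the rule for comparing, such genes could only come out lower in *aph-1*, and they also enter the median below. With a minimum of 5 FPKM, 1 of 3 compared genes was 2-fold lower. *HSP22.0* was 21.1-fold lower (log2 ratio −4.40), *HSP17.6A* 3.48-fold lower (−1.80) and *HSP17.4* 3.22-fold lower (−1.69). Counted from the lowest ratio among all genes compared, these were the 27th, the 71st and the 79th. *HSP17.6II* (−0.93) and *HSP17.6C* (−0.85) were 1.90-fold and 1.81-fold lower, which did not reach 2-fold. *HSP15.7* (−0.50) and *HSP18.2* (−0.49), the genes with the highest untreated levels, were closer to the wild type, and *HSP101* (0.19) was on the other side of 0. *HSP21* (−2.40) and *HSP23.6* (−2.05) were below the minimum in both groups and were not compared. The median over the 8 genes was −0.89, against −0.049 over all genes compared. Of the 8, 7 had a log2 ratio below 0. The median over all genes was below 0 too, and the share of all genes below 0 was not counted.

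With ABA, 0 of the 10 genes were 2-fold lower or higher in *aph-1*. Of 19408 genes compared, 0.319% were lower and 0.489% higher. The log2 ratio of *aph-1* to the wild type was −0.20 for *HSP22.0*, −0.18 for *HSP17.4*, −0.17 for *HSP18.2* and −0.32 for *HSP17.6A*. The median was −0.18, against −0.012 over all genes compared. Of the 10 genes, 8 were below 0, and the share of all genes below 0 was not counted. The widest differences were in the genes with the lowest levels, *HSP21* at −0.78, or 1.71-fold lower, and *HSP23.6* at 0.52. The other gene above 0 was *HSP17.6C* at 0.27. The 4 ratios share their groups, since each group enters both an ABA comparison and a genotype comparison, and the 4 are not independent of each other.

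**Figure D3:**
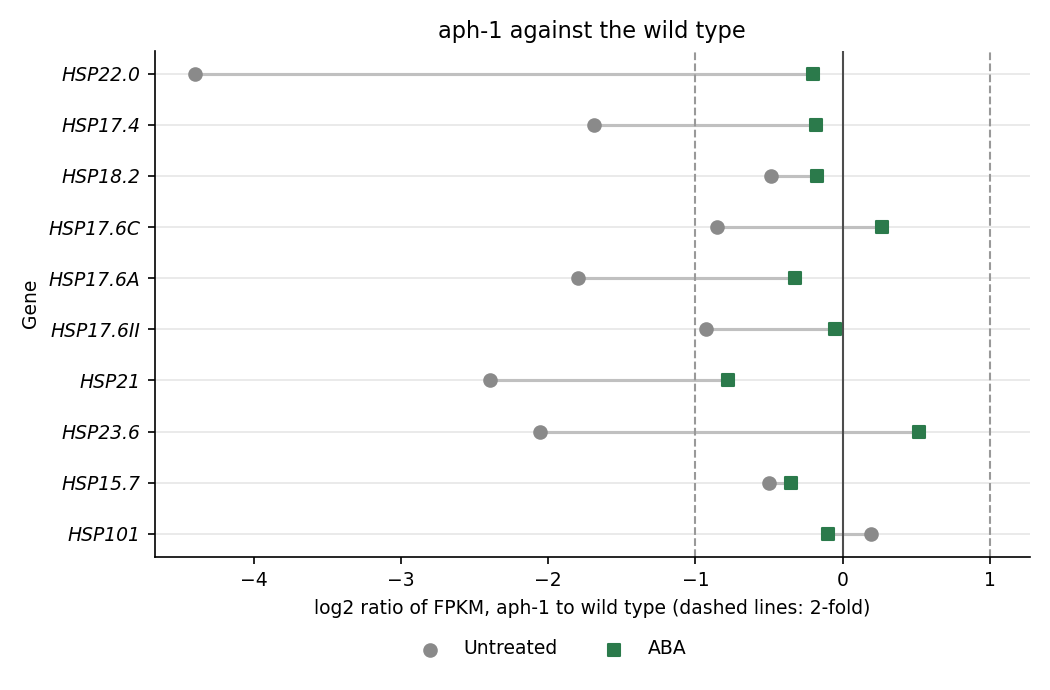
log2 ratio of FPKM in *aph-1* to FPKM in the wild type for each of the 10 genes, with grey circles without ABA, green squares with ABA and dashed lines at 2-fold. The squares lie between −0.78 and 0.52, and the circles reach from −4.40 for *HSP22.0* to 0.19 for *HSP101*.

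For 9 of the 10 genes a larger ABA fold in *aph-1* stood beside a lower untreated level. The untreated level of *HSP22.0* was 1.13% of its ABA level in the wild type and 0.0616% in the mutant. For *HSP17.4* these values were 1.46% and 0.516%, and for *HSP17.6A* 3.64% and 1.31%. Among the genes with the smallest ABA responses the genotypes were nearer to each other, at 17.3% and 13.9% for *HSP18.2*, 28.8% and 26.1% for *HSP15.7*, and 24.5% and 30.02% for *HSP101*. Across the 11617 genes that reached 10 FPKM in both genotypes with ABA, 2 had an untreated level under 0.5% of the ABA level in the wild type and 59 in the mutant. Under 1% there were 21 genes in the wild type and 76 in the mutant. *HSP22.0* had the 34th lowest percent in the wild type and the 13th lowest in *aph-1*, while *HSP17.4* had the 52nd lowest and the 60th lowest.

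ABA marker genes, a list of 7, had the same order of groups as *HSP22.0*. All 7 were higher with ABA in both genotypes, with a median log2 ratio of 6.67 in the wild type and 9.11 in the mutant. Without ABA 6 of 7 were lower in *aph-1*, with a median of −3.32, and with ABA 0 of 7 were, with a median of −0.24. *LEA7*, of the late embryogenesis abundant family, had 56.6 FPKM in the untreated wild type, 3.21 FPKM in untreated *aph-1*, 5772 FPKM in the wild type with ABA and 4882 FPKM in *aph-1* with ABA. *RAB18*, a dehydrin gene, was at 56.6, 5.67, 7335 and 5766 FPKM in the same order. *LTI65* was 3.70 lower on the log2 scale in untreated *aph-1* and *COR15A* 3.27 lower. The list was drawn up with results of these data known, partly from genes that the study names.

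**Figure D4:**
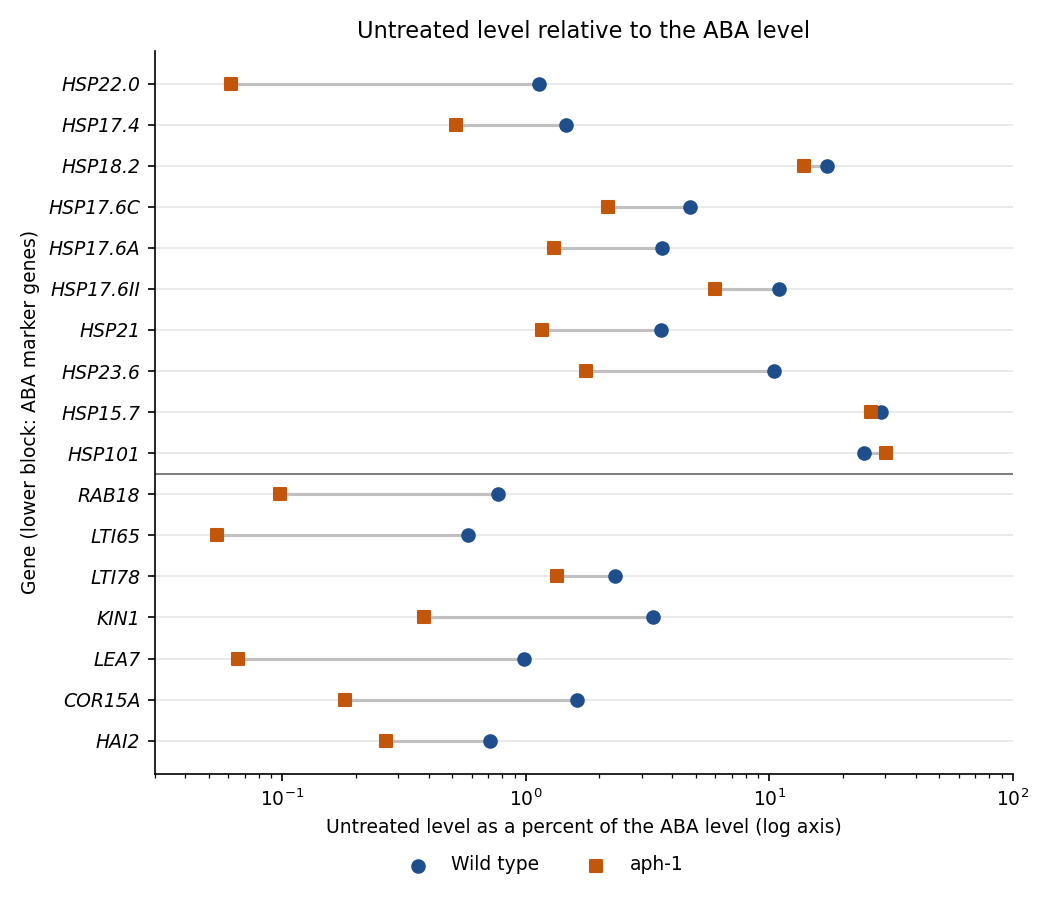
Untreated level as a percent of the ABA level on a log axis for the 10 genes and, in the lower block, 7 ABA marker genes, with circles for the wild type and squares for *aph-1*. The square lies left of the circle in each row except that of *HSP101*, and *HSP22.0* is at 1.13% in the wild type and 0.0616% in the mutant.

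The amount by which the untreated wild type exceeded untreated *aph-1* was 1.08% of the ABA level of the wild type for *HSP22.0* and 1.01% for *HSP17.4*. It was 2.59% for *HSP17.6A*, 4.99% for *HSP18.2* and 8.44% for *HSP15.7*. This excess cannot be larger than the untreated percent of the ABA level in the wild type. A strongly ABA-induced gene therefore has a small value in any case. The 7 ABA marker genes ran from 0.502% for *HAI2* to 3.01% for *KIN1*, with *LEA7* at 0.925% and *LTI78* at 1.07%. AT1G52560, a small heat shock protein gene, was at 1.03%, the heat shock factor *HSFA6B* at 0.918% and the peroxidase gene *APX2* at 0.896%. Other ABA-induced genes were farther from 1%, such as *MBF1C* at 3.83%, AT5G51440 at 0.490% and *HSFA6A* at 0.456%. With 1% of the treated wild-type level taken off the untreated wild-type level, *HSP17.4* was 1.02-fold lower in *aph-1*, *HSP17.6A* was 2.52-fold lower, and *HSP22.0* fell below the minimum, with 0.547 FPKM left, 2.49 times the level in *aph-1*. With 1% taken off, 1 of 7 compared genes was thus 2-fold lower in *aph-1*, and the share of all genes at that setting was not computed. With 0.5% taken off, the 3 genes were 2.12-fold, 2.997-fold and 11.8-fold lower. For some genes 1% is more than the whole untreated wild-type level, and the value was then set to 0. Of the 11617 genes with 10 FPKM or more with ABA in both genotypes, 21 were under 1% and 2 under 0.5%. *RAB18* (0.772%) and *LEA7* (0.980%) were under 1%, while *COR15A* (1.63%) and *KIN1* (3.33%) were not. This subtraction is arithmetic on the group values, and whether a trace of ABA-treated material was in the untreated wild-type libraries was not tested. With 1 value per group, such a trace and a difference between the genotypes cannot be told apart.

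Measured by the distance between centred log2 profiles over the 4 groups, the closest pairs joined proteins of different compartments or families. The closest were *HSP15.7* and *HSP101*, at a distance of 0.516, then *HSP17.6II* and *HSP23.6* at 0.700 and *HSP17.6A* and *HSP21* at 0.792. The profiles add 0.1 FPKM to each level. *HSP23.6* and *HSP21* were at 0.102 and 0.0587 FPKM in untreated *aph-1*, so their distances depend on that setting. *HSP22.0* and *HSP101* were farthest apart, at 7.04. Among 20276 genes with at least 1 FPKM in a group, those outside the 10 with profiles most like that of *HSP22.0* were AT3G02480 (distance 0.179) and AT3G17520 (0.223), which encode late embryogenesis abundant family proteins, and *TSPO* (0.230), which encodes a tryptophan-rich membrane protein. AT3G02480 stood at 230 FPKM in the untreated wild type, 14.4 FPKM in untreated *aph-1*, 17525 FPKM in the wild type with ABA and 14691 FPKM in *aph-1* with ABA. *TSPO* was at 5.94, 0.333, 603 and 560 FPKM in the same order, close to *HSP22.0* in level as well as in profile. Those most like *HSP101* were AT1G63370 (distance 0.0243), a flavin-binding monooxygenase gene, *ALAAT2* (0.0542), an alanine aminotransferase gene, and *TPPJ* (0.0671). In the same order of groups, AT1G63370 was at 0.353, 0.421, 1.74 and 1.64 FPKM. At such low levels the added 0.1 FPKM weighs on the distance, so its place ahead of *ALAAT2* and *TPPJ* depends on that setting.

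Other small heat shock protein genes, a list of 10 from the same family that the annotation describes without a symbol, responded less uniformly. Of these, 5 were higher and 1 lower with ABA in the wild type, and 6 were higher and 1 lower in *aph-1*, with median log2 ratios of 1.03 and 1.33. Over all 28 genes outside the 10 that the annotation describes as HSP20-like chaperones, a list made after the values were seen, 25 were compared and the counts were the same, 5 higher and 1 lower in the wild type and 6 higher and 1 lower in *aph-1*. Their medians were 0.11 and 0.23. The 10 genes and the list of 10 were likewise chosen with earlier results of these data known, so the contrast is a description. AT1G52560 stood at 2.89 FPKM in the untreated wild type, 1.36 FPKM in untreated *aph-1*, 150 FPKM in the wild type with ABA and 129 FPKM in *aph-1* with ABA, a pattern of the same kind as *HSP17.4*. It was the only gene of the list 2-fold lower in untreated *aph-1* (log2 ratio −1.09), and 0 of the 10 passed 2-fold between the genotypes with ABA. AT5G51440 was 11.9-fold higher with ABA in both genotypes and AT1G07400 was 7.46-fold higher in the wild type. AT1G59860 and AT2G29500 were 2.28-fold and 2.20-fold higher in the wild type.

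AT4G21870 moved the other way. It stood at 154 FPKM in the untreated wild type, 121 FPKM in untreated *aph-1*, 5.39 FPKM in the wild type with ABA and 4.08 FPKM in *aph-1* with ABA, a log2 ratio of −4.83 and −4.89. AT2G19310 was the most abundant of the list with ABA, at 161, 113, 304 and 275 FPKM in the same order. It passed 2-fold in *aph-1* at 2.43-fold and not in the wild type at 1.89-fold. AT1G54050, AT5G54660 and AT5G47600 passed 2-fold in neither genotype.

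In the HSP100/Clp family, 3 of 5 other genes were higher with ABA in the wild type and 2 of 5 in *aph-1*. *ERD1*, a plastid Clp protein gene, was 4.49-fold higher in the wild type and 3.94-fold in *aph-1*, *CLPB4*, the mitochondrial relative of *HSP101*, 3.21-fold and 2.07-fold, and *CLPB3*, the plastid relative, 2.34-fold and 1.85-fold. The log2 ratio of *aph-1* to the wild type without ABA was 0.41 for *CLPB4* and 0.17 for *CLPB3*, above 0 as for *HSP101*. Of 7 HSP90 genes, 1 was higher with ABA in each genotype, *HSP90.1*, the heat-induced cytosolic form, at 12.5 FPKM in the untreated wild type, 11.4 FPKM in untreated *aph-1*, 58.1 FPKM in the wild type with ABA and 54.6 FPKM in *aph-1* with ABA.

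Of 18 HSP70 genes, 16 were compared, and 3 were higher with ABA in each genotype. The gene named *HSP70* (AT3G12580), a heat-induced cytosolic form, stood at 16.9 FPKM in the untreated wild type, 14.3 FPKM in untreated *aph-1*, 330 FPKM in the wild type with ABA and 282 FPKM in *aph-1* with ABA. *Hsp70b* was 3.77-fold and 3.86-fold higher, and *HSP70T-2* 4.36-fold and 3.65-fold. The HSP70 family had a median log2 ratio of 0.38 for *aph-1* over the wild type without ABA, with 0 of 16 past 2-fold. The rise of *HSP70* with ABA was 19.5-fold in the wild type and 19.8-fold in *aph-1*.

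**Figure D5:**
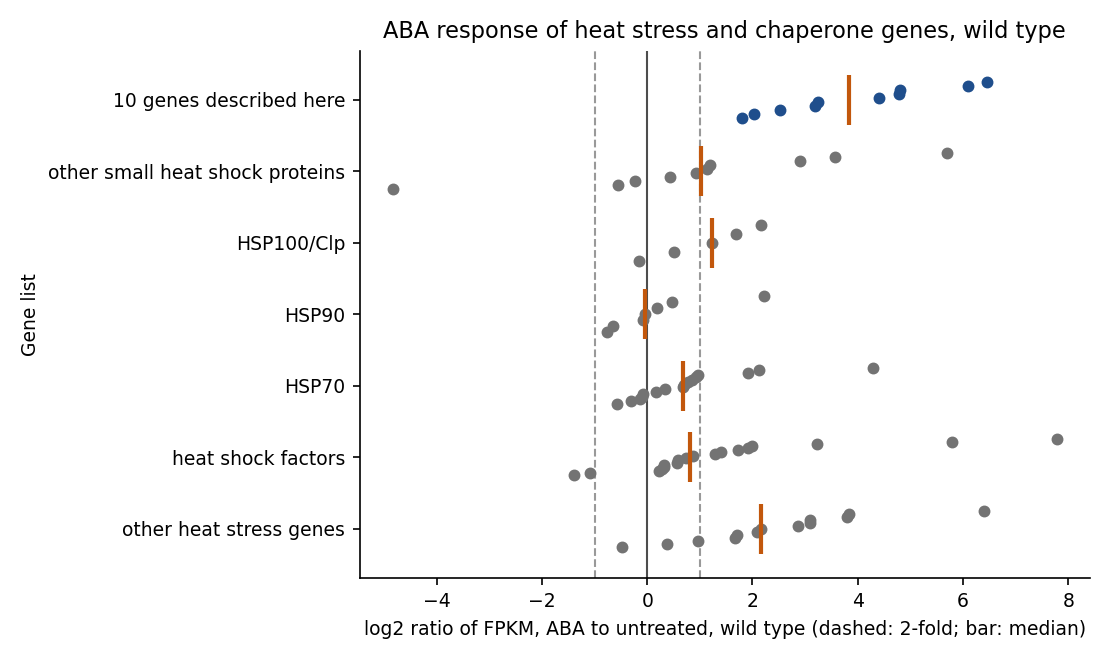
log2 ratio of FPKM with ABA to FPKM without ABA in the wild type for compared genes of 7 lists, with 1 point per gene, an orange bar at the median of each list and dashed lines at 2-fold. The points of the 10 genes described here all lie right of 2-fold around a median of 3.83, and the medians of the other lists run from −0.041 for HSP90 to 2.17 for other heat stress genes. The 10 genes and the lists were chosen with earlier results of these data known.

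Heat shock factors are the transcription factors that bind the promoters of heat shock protein genes. Of 21 listed, 20 were in the table used here and 18 were compared for the ABA response, of which 8 were higher in each genotype, and 2 were lower in the wild type and 1 in the mutant. *HSFA6B* stood at 3.24 FPKM in the untreated wild type, 1.58 FPKM in untreated *aph-1*, 180 FPKM in the wild type with ABA and 158 FPKM in *aph-1* with ABA. It was also the only factor of 17 compared that was 2-fold lower in untreated *aph-1* (log2 ratio −1.03), and 0 of 18 passed 2-fold between genotypes with ABA. *HSFA6A* stood at 0.0945 FPKM in the untreated wild type, was listed at 0 in untreated *aph-1*, and was at 20.7 FPKM in the wild type with ABA and 15.2 FPKM in *aph-1* with ABA. *HSFA2*, a heat-induced factor that sustains the heat response, was at 1.82, 1.19, 7.27 and 5.99 FPKM in the same order, and *HSFB2A* was 9.37-fold higher with ABA in the wild type and 10.6-fold in *aph-1*. The factors that were lower with ABA, *HSFA3* in both genotypes and *HSFA7A* in the wild type, were named after their values were seen.

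Other genes of the heat stress response mostly rose. Of 13 listed, 10 were higher with ABA in the wild type and 11 in the mutant, with medians of 2.17 and 2.12, and 0 passed 2-fold between the genotypes in either condition. *APX2*, an ascorbate peroxidase gene induced by heat and strong light, stood at 0.292 FPKM in the untreated wild type, 0.0699 FPKM in untreated *aph-1*, 24.8 FPKM in the wild type with ABA and 24.1 FPKM in *aph-1* with ABA. Its untreated ratio, −2.06 on the log2 scale, was under the minimum of 1 FPKM and was not compared, as for *HSP21* and *HSP23.6*. *DREB2A*, a transcription factor of drought and heat, was 14.3-fold higher with ABA in the wild type and 18.1-fold in *aph-1*. *HSA32*, which prolongs acquired heat tolerance, was 13.8-fold and 13.4-fold higher, and *MBF1C*, a transcriptional coactivator, 8.49-fold and 9.51-fold. All of these lists were drawn up with results of these data known, and their counts are descriptions.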

How the data were processed

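The authors sequenced 12 directional paired-end libraries, 3 in each of 4 groups, and their methods name Trimmomatic 0.36 for trimming, HISAT with the TAIR10 genome for alignment, htseq-count for counts per gene and edgeR for calls. The FPKM values used here are as the authors deposited them, 1 per gene and group. How they were made is not described in the methods. The sheet carries the name Cuffdiff, from which, with the values, the unit was inferred. Depth per library, and so precision, is unknown. The table also holds 8 columns of the authors' own comparisons, log2 ratios and calls, which were not used.

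Here ratios of group values were computed with Python 3.11.15, numpy 2.4.6 and pandas 2.3.3 and drawn with matplotlib 3.10.9. A change is a 2-fold difference with at least 1 FPKM in at least 1 compared group, and the same count over all genes is the background. No count model was fitted and no test was run, since no counts or values per library were used. The counting step was tested on made-up values. Profiles were log2 of FPKM plus 0.1, centred over the 4 groups, and compared by Euclidean distance. Gene names and neighbours came from RefSeq, assembly TAIR10.1, with 32815 of 33559 identifiers matched. Promoter and protein sequences were not used here.

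The 10 genes, the gene lists, thresholds and alternatives were chosen with earlier results of these data known. The text names the 10 genes, the other small heat shock protein genes, up to 4 genes of each further list by size of ABA response, *APH*, and the 3 genes with the nearest profile to *HSP22.0* and to *HSP101*. Neighbouring and overlapping genes, cell type markers and any other gene are context outside this rule.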

Additional observations from a re-analysis of the deposited data

Results flagged for a closer look

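For 3 of the 10 genes the difference between the genotypes had opposite directions without and with ABA, and for all 3 this difference was not tested, since each group has 1 value. Any change of direction was flagged, however small. The share of all genes with such a change was not counted, so 3 of 10 has no background. *HSP23.6*, the mitochondrial small heat shock protein gene, was at 0.425 FPKM in Col-0 against 0.102 FPKM in *aph-1* when untreated and at 4.05 against 5.81 FPKM with ABA, so that its log2 ratio of *aph-1* to the wild type was 2.57 higher with ABA than without. For *HSP17.6C*, a class I gene, that ratio was 1.12 higher with ABA, at 0.27 against −0.85. For *HSP101* it was −0.29, from 0.19 without ABA to −0.10 with ABA. The untreated levels of *HSP23.6* were below the minimum of 1 FPKM, so its untreated ratio was not among those compared.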

How the results depend on the processing

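Of 60 recomputed values over 8 results, 51 stayed close to the reported value and 9 moved further. A reversal could be labelled only for the median ABA ratios, where 0 reversed, and not for counts or median genotype ratios. Close means within 1.5 times for a count and, for a median log2 ratio, within 1.5-fold once the log is undone. Of 8 compared genes, 3 were lower in untreated *aph-1* as reported, 5 at a threshold of 1.5-fold and 1 at 4-fold. This count was 5 of 10 with no minimum, and 1 of 3 with at least 5 FPKM in at least 1 compared group. It was 1 of 7 with 1% of the treated wild-type level taken off. The share of all genes past each changed setting was not computed, here or for the counts below. Whether these counts stand out from all genes therefore cannot be said. The count lower in *aph-1* with ABA, 0 as reported, was 1 at 1.5-fold, *HSP21*. The median log2 ABA ratio moved from 3.83 to 2.68 in the wild type with a pseudocount of 1 FPKM, and in *aph-1* from 5.67 to 4.94 with a pseudocount of 0.1 FPKM and to 2.84 with 1 FPKM, which is what a pseudocount does to low untreated levels. The count of genes higher with ABA stayed between 9 and 10 in the wild type and between 8 and 10 in *aph-1*, and the median genotype ratio ran from −1.31 to −0.45 without ABA, around −0.89 as reported. No paired analysis was possible because the table holds 1 value per group, and for the same reason no library could be left out. The motif and protein descriptions planned were not run, since no sequence was used here. With depth unknown, no error can be given for levels such as the 0.220 FPKM behind the largest fold.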
